A study of Mus musculus with 10 samples.

Results

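Myelin is the stack of membrane that oligodendrocytes wind around axons in the brain and spinal cord, and that Schwann cells wind around axons in peripheral nerves. Oligodendrocyte progenitors leave the cell cycle under transcription factors of the Olig, Nkx and Sox families and then switch on the proteins that compact the membrane, seal its layers and attach it to the axon, together with enzymes for its galactolipids. The 9 genes described here were taken by symbol from that program: Mbp, Mobp and Cnp, whose proteins build or line the sheath, Mal and Cldn11, which lie in the membrane, Mag, Mog and Opalin on the surface, and Ugt8a, which makes galactosylceramide. They were matched by 15 of 41174 probes and are 9 of 18539 named genes.

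The arrays carried RNA from the left hemibrains of 10 male C57BL/6J mice in Cy5 and another RNA in Cy3, with no dye swap, so that a dye effect of a probe cannot be told apart from a difference between the RNAs. The mice were received at 3 weeks, housed singly, and given an n-3 PUFA enriched diet (FD) or a standard lab diet (SD) for 20 weeks, to the age of 5 months. The sample labels gave FD for all 10 mice, the sample descriptions called all of them controls, and the study's methods named mice of both diets, so the diet of an array is not settled and no diets were compared. The Cy3 RNA was labelled as pooled hemibrain of SD mice, but the labelling protocol and the methods called it a commercial reference. Genes of brain cells went against the first label, with the neuronal gene Snap25 at a median log2 Cy5/Cy3 of 6.15 and the astrocyte gene Slc1a2 at 10.05.

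The arrays lay on 4 slides, C10-413 and C10-437 alone and the others on 2 slides of 4 (C10-415, C10-416, C10-417 and C10-423 on the first, C10-424, C10-425, C10-434 and C10-435 on the second). C10-434 stood apart, with 49.8% of its probes well above background in Cy5 against 68.2% to 76.9% on the other arrays. Markers checked what else the tissue held: all 6 neuronal and all 6 astrocyte genes were higher in Cy5, as were 4 of 5 microglial, 3 of 4 endothelial and 2 of 3 measured choroid plexus genes. In a hemibrain, fewer cells of a type and less RNA per cell cannot be told apart.

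All 15 probes were higher in Cy5 than in Cy3 by limma's test at an adjusted p under 0.05, where 37.4% of all probes were, and 13 of them had a log2 ratio above 2 on every array, where 7.30% of the probes with a value on all arrays did. By gene, with the probe of highest Cy5 level standing for each, 9 of 9 were higher (41.7% of all genes), and 7 of 9 were above 3 on every array (6.23%). Their median log2 ratios ran from 3.26 for Mobp to 7.95 for Cldn11, with a median over the 9 genes of 4.86, beside 0.08 over all named genes. These ratios state how far the hemibrain exceeded the Cy3 RNA and do not rank the genes by abundance. In Cy5, 14 of the 15 were well above background on all arrays. In Cy3, 9 were on all arrays, 4 on some arrays and 2 on none.

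**Figure D1:**
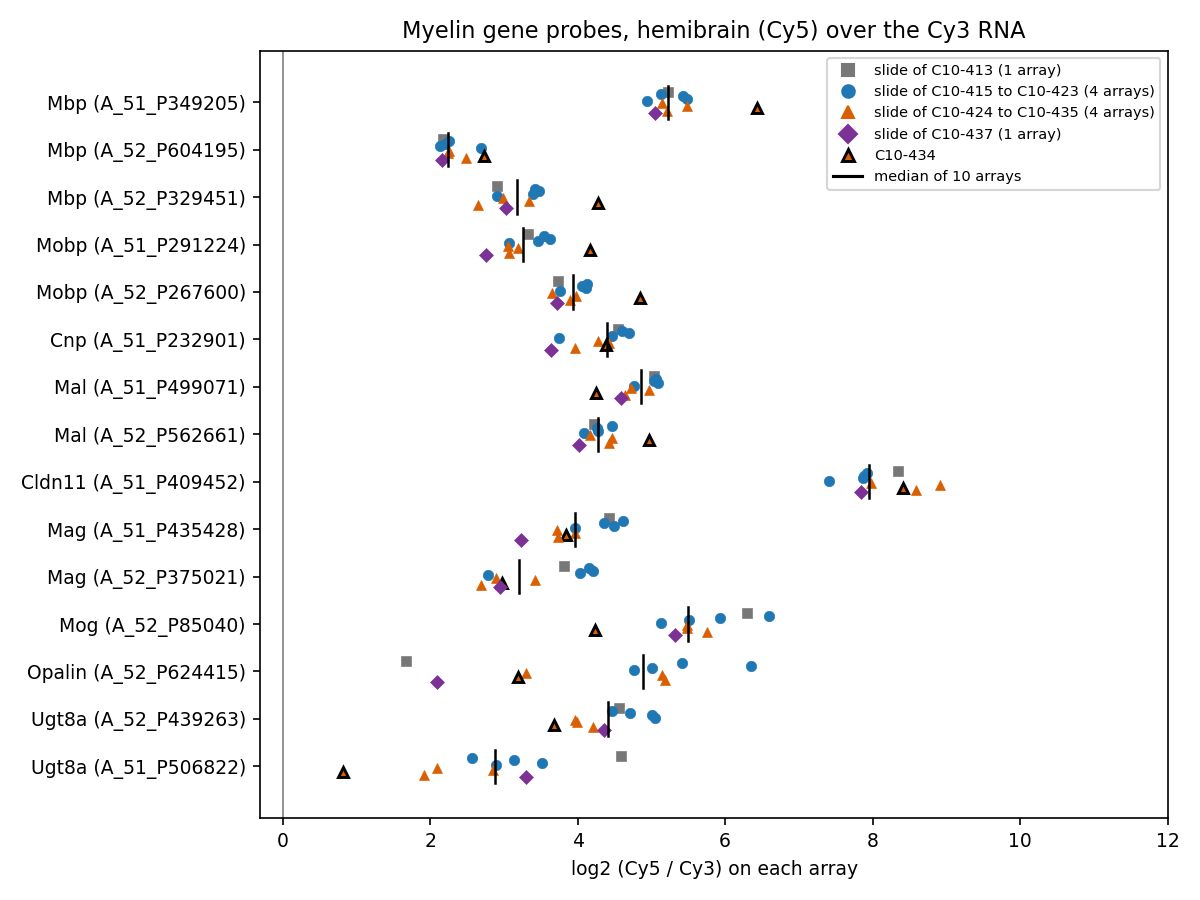
Log2 Cy5/Cy3 of the 15 probes of the 9 myelin genes (rows) on each of 10 arrays, with symbols for the slide, a black outline for C10-434 and a bar at the median. All points lie above 0, C10-434 is the highest array for 6 probes and the lowest for 4, and Opalin has the widest range, from 1.68 to 6.35.

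Mbp, the basic protein that holds the inner faces of the compact membrane together, had 3 probes. A_51_P349205, printed 10 times on each array, gave log2 ratios of 4.95 on C10-423, a median of 5.22 and 6.43 on C10-434, so that the hemibrain signal was 37.4-fold the Cy3 signal at the median (adjusted p = 6.40e-13, limma). The copies of this probe on one array had an SD of 0.0738 to 0.222, beside an SD between arrays of 0.42, or 0.19 without C10-434. An array's value is the mean of its copies, so the SD of single copies overstates the spot error of that value. A_52_P604195 ran from 2.14 to 2.73 with a median of 2.25, and A_52_P329451 from 2.65 to 4.28 with a median of 3.18. The probes of Mbp therefore all lay above 0 but at unlike ratios, and all were highest on C10-434. Over the 10 arrays the first and the third ran together (Pearson r = 0.87, Spearman rho = 0.55), while the first and the second had r = 0.38 and rho = -0.05. Without C10-434 these r were 0.58 and -0.54.

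Mobp, a small basic protein of compact myelin, had 2 probes whose values ran together over the arrays (r = 0.90, rho = 0.87, and r = 0.78 without C10-434). A_51_P291224 ran from 2.76 on C10-437 over a median of 3.26 to 4.16 on C10-434, and A_52_P267600 from 3.66 over 3.93 to 4.85, again on C10-434. Cnp, the phosphodiesterase that keeps cytoplasmic channels open within the sheath, ran from 3.64 on C10-437 over a median of 4.40 to 4.70 on C10-416. C10-434, at 4.38, was in the middle of the Cnp values.

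Mal, a proteolipid that sorts raft membrane, was read by 2 probes that differed on C10-434. A_51_P499071 had its lowest value there, 4.25, while the other arrays gave 4.59 to 5.08, with a median of 4.86 over all 10. A_52_P562661 had its highest value there, 4.96, while the others gave 4.01 to 4.47, with a median of 4.27. Over all 10 arrays their r was -0.41, and without C10-434 it was 0.48. In Cy5 alone the probes ran together (r = 0.72), and in Cy3 alone they did not (r = -0.24).

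Cldn11, the claudin that seals the layers of central myelin, had ratios from 7.41 on C10-423 over a median of 7.95 to 8.91 on C10-425. Its Cy3 signal was well above background on 6 of 10 arrays, so that the denominator of this ratio was at background on the other arrays, C10-424, C10-425, C10-434 and C10-435. On the 6 arrays with a measured Cy3 signal the ratio was 7.41 to 8.34. With background-corrected signals and an offset of 50, which pulls dim signals together, the median of Cldn11 was 5.81 (normexp) or 6.17 (subtraction with a floor).

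Mag, an adhesion protein that faces the axon, had medians of 3.96 (A_51_P435428, 3.23 to 4.62) and 3.20 (A_52_P375021, 2.69 to 4.21), and its probes ran together (r = 0.85, rho = 0.73). Mog, an immunoglobulin-like protein of the outermost layer and a target in models of demyelination, ran from 4.24 on C10-434 over a median of 5.50 to 6.60 on C10-415. Its Cy3 signal was not well above background on any array. Averaged over the arrays on a log2 scale, the hemibrain signal was thus at least 29.4-fold the Cy3 signal. For each array this took the higher of the probe's own Cy3 signal and the lowest Cy3 signal of a probe well above background. The bound is a mean, not a minimum for each array. The ratio itself, tested against 0, had an adjusted p of 1.45e-11 (limma). The bound for Ugt8a below was taken in the same way.

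Opalin, a glycoprotein of the paranodal loops found in mammalian central myelin, had the widest range of ratios among the probes. It read 1.68 on C10-413 and 2.09 on C10-437, had a median of 4.89, and reached 6.35 on C10-416. Its Cy5 level, on a log2 scale with each array's 75th percentile at 0, ranged over 1.71, whereas its Cy3 level ranged over 5.40, from -8.50 to -3.11. The Cy3 signal was well above background on 3 arrays only, C10-413, C10-424 and C10-437, where the ratio was 1.68, 3.31 and 2.09, all below the median over the 10 arrays. The SD of its Cy5 level, 0.53, was below those of Mag A_52_P375021 and Ugt8a A_51_P506822, both 0.73. The SD of its ratio was 1.55, beside a median SD of 0.27 over the 20333 probes well above background in Cy5 on all arrays, and 12 of the 15 probes of the set had an SD above that median. With an offset of 50 the median of Opalin was 1.44 (normexp) or 1.98 (subtraction with a floor), and that of Mog was 2.21 or 2.65.

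Ugt8a, the enzyme that adds galactose to ceramide, gave 3.68 on C10-434, a median of 4.41 and 5.05 on C10-423 with A_52_P439263, which was well above background in Cy3 on 9 arrays. Its second probe, A_51_P506822, was dimmer, well above background in Cy5 on 9 arrays and in Cy3 on none. That probe read from 0.83 on C10-434 to 4.59 on C10-413. Averaged over the arrays, its hemibrain signal was at least 4.55-fold that of the Cy3 RNA, though the ratio on C10-434 alone was lower. The ratio of this probe, tested against 0, had an adjusted p of 1.24e-06 (limma).

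The bases before the start of Mobp and of Mag are shown because their ratios ran with those of transcription factors over the arrays. As given further on, Mobp ran with Olig1, and Mag with Sox10. Olig1 is not a SOX factor. Mobp with Sox10 had r = 0.48 over 10 arrays (permutation adjusted p = 0.45) and r = 0.95 without C10-434. The search below thus does not bear on the pair of Mobp and Olig1. SOX factors, Sox10 among them, bind DNA at ACAAAG, which reads CTTTGT on the other strand. The letters ACAAAG were searched on both strands in the 250 bases before the outermost RefSeq start (GRCm38.p6) of each gene, and the 2 strands' forms do not overlap each other. Each sequence is written 5′ to 3′ on the strand of the gene, with the matches in capitals. Mobp is on the plus strand at chr9:120149492-120149741, and Mag on the minus strand at chr7:30914923-30915172.
Mobp: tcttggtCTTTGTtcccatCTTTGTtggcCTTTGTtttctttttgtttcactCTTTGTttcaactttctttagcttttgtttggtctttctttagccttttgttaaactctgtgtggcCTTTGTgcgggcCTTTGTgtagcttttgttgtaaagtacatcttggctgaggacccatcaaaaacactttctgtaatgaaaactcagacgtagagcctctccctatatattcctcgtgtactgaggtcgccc
Mag: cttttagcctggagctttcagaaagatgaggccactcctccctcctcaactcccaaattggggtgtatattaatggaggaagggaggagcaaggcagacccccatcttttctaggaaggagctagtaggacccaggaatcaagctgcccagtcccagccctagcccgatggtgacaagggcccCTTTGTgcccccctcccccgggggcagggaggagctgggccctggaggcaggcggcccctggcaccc

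The Mobp window held 6 matches and was the only window of 32851, from 27025 genes, with that many. The Mag window held 1, as did those of Cnp and Opalin, and 4 of the 8 members with a window held at least 1, where 16.5% of all windows did. A match is a string of letters and was not tested as a site. The windows of Mal, Cldn11, Mog and Ugt8a held none of these letters.

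Among the wider genes of the lineage (39 listed, 37 with a probe), 27 were higher in Cy5 and 10 lower. Mature oligodendrocyte genes other than the members were higher for 13 of 14, with Trf, the iron carrier made by oligodendrocytes, at a median of 5.32 (4.53 to 5.51). Gsn, an actin-severing protein of many cell types, was the one that was lower. All 6 measured transcription factors were higher, with Olig1 at 7.01 (6.04 to 7.92).

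The other groups of the list were split. Lipid synthesis had 2 genes higher, the galactolipid enzymes Fa2h and Gal3st1, and 3 lower, Cers2, Elovl1 and Elovl7, which many tissues use. Of the progenitor genes, 5 of 7 were higher. The receptor Pdgfra had a median of -2.56 (-3.01 to -2.39) and the signal Bmp4 one of -2.89 (-3.24 to -2.48), so both were lower in the hemibrain than in the Cy3 RNA on every array. Of 5 genes of peripheral myelin, 4 were lower in Cy5, with Prx, a scaffold of Schwann cells, at -2.64 (-3.37 to -2.08), and Ncmap was higher. In Gpr17 a spot was set aside as an outlier on 1 array, so that its value rests on 9 arrays.

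**Figure D2:**
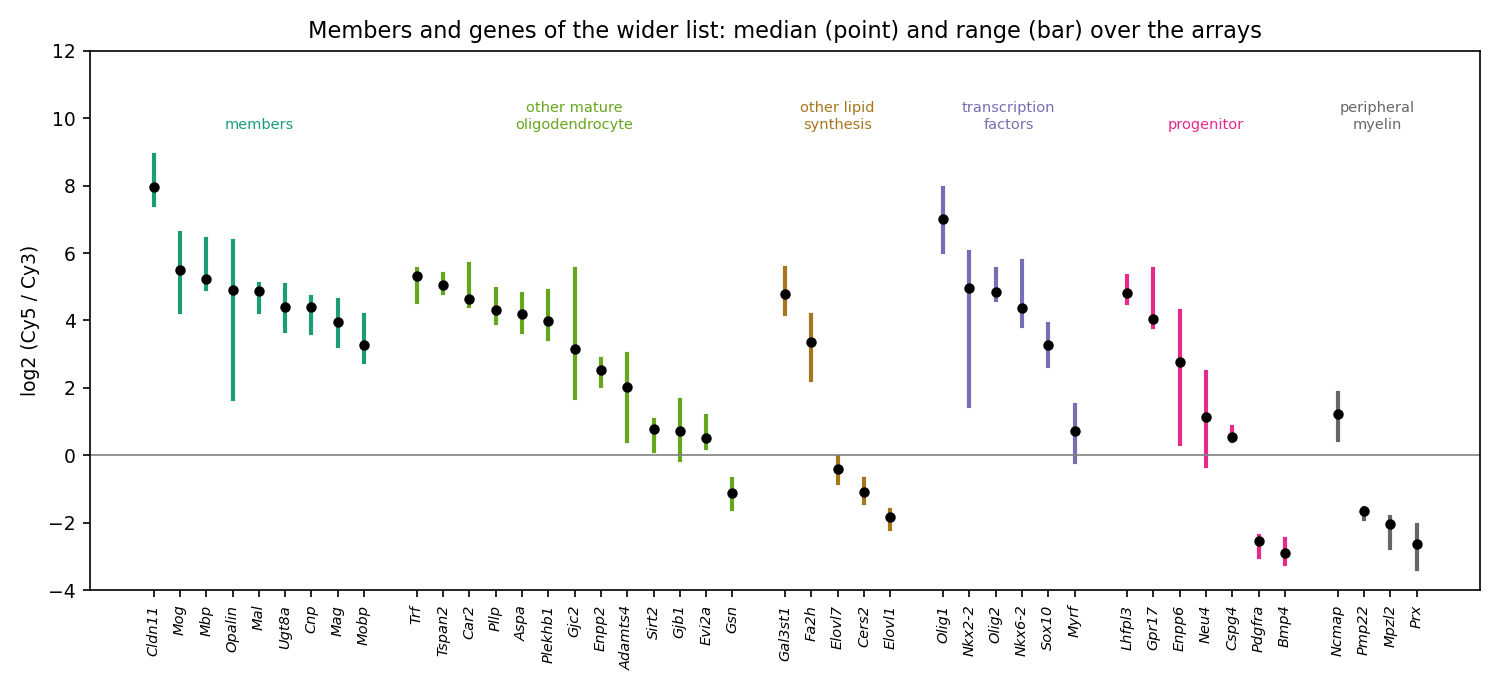
Median (point) and range over the arrays (bar) of the log2 Cy5/Cy3 ratio, 1 probe per gene, for the 9 members and most genes of the wider list, in 5 groups. The members, from 3.26 to 7.95, and the transcription factors all have medians above 0, while Pdgfra, Bmp4 and 3 peripheral myelin genes have whole ranges below 0.

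The 2 slides of 4 arrays were compared to see whether the members moved with the slide, which is not separated from the animals on it. Of the 15 probes, 0 passed an adjusted p of 0.05 by limma, where 0.0755% of all probes did, and 5 had an unadjusted p under 0.05, where 9.92% of all probes did. The values did not overlap between the slides for 3 probes, and 2 of these were lower on the second slide, where 2.31% of all probes separated that way. The pair was Ugt8a A_52_P439263 and Mag A_51_P435428. The third was Cldn11, which was higher on the second slide, where its Cy3 signal was at background. No share of all probes is given for that direction.

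Ugt8a read 4.47, 4.71, 5.00 and 5.05 on the first slide and 3.96, 3.99, 3.68 and 4.21 on the second, a difference of -0.85 (SE 0.19, adjusted p = 0.15, limma). Its Cy5 levels were -0.94, -0.37, -0.38 and -0.10 on the first slide and -0.27, -0.41, -0.84 and -0.26 on the second. Its Cy3 levels were -5.42, -5.09, -5.41 and -5.18 on the first slide and -4.22, -4.40, -4.53 and -4.48 on the second. The hemibrain signals of Ugt8a thus overlapped, with a mean difference of 0.0034 (adjusted p = 0.999, limma), while the Cy3 signals did not, with one of 0.87 (adjusted p = 0.0018, limma).

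Mag A_51_P435428 had the same split, with a ratio that differed by -0.54 (SE 0.18, adjusted p = 0.33, limma), a Cy5 level that differed by 0.07 (adjusted p = 0.97, limma) and a Cy3 level that differed by 0.63 (adjusted p = 0.014, limma). Its ratios were 4.62, 4.36, 4.50 and 3.96 on the first slide and 3.72, 3.96, 3.84 and 3.74 on the second, so that only a narrow gap, between C10-423 and C10-425, separated the slides. The Cy3 signal of Cldn11 was well above background on all 4 arrays of the first slide and on none of the second, so its higher ratios on the second slide rest on a denominator at background and no size is given. Its Cy5 level differed by -0.18 (adjusted p = 0.83, limma).

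Tested on single dyes, 3 member probes differed between the slides in Cy3, both probes of Ugt8a and the first of Mag, where 11.0% of all probes did. The second probe of Ugt8a, however, was not well above background in Cy3 on any array, so that its difference is one of signals at background and the calls on measured signal are 2. In Cy5 0 member probes did, where 5.66% of all probes passed an adjusted p of 0.05. At an unadjusted p under 0.05 the member count in Cy5 was also 0. The share of all probes at that threshold is not given here, so no conclusion is drawn from this count. Over the probes well above background in both dyes on these arrays, the median difference between slides was 0.03 in Cy5 and -0.0041 in Cy3. With the signals taken before dye normalization, these 2 were called in Cy3, where 16.7% of all probes were. Ugt8a A_52_P439263 differed by 0.82 (adjusted p = 0.0032, limma) and Mag A_51_P435428 by 0.76 (adjusted p = 0.0046, limma). The counts called in Cy3 thus do not set the members apart from all probes. The single-dye comparisons were added after the ratios had been seen.

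Among the 37 wider genes, 4 were higher in Cy3 on the second slide by the same test, 10.8% of them where 9.53% of all probes were, a share near the background. These genes, named after their values were seen, were Fa2h, which hydroxylates the fatty acid of the same lipids that Ugt8a makes, Aspa, Sox10 and Nkx2-2. Fa2h was higher by 0.87 in Cy3 (adjusted p = 3.4e-04, limma), with a difference of -0.13 in Cy5. Sox10 was higher by 0.71 in Cy3 (adjusted p = 0.020, limma), with a difference of 0.08 in Cy5. Whether the RNA in Cy3, its labelling or the hybridization differed between the slides was not tested.

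**Figure D3:**
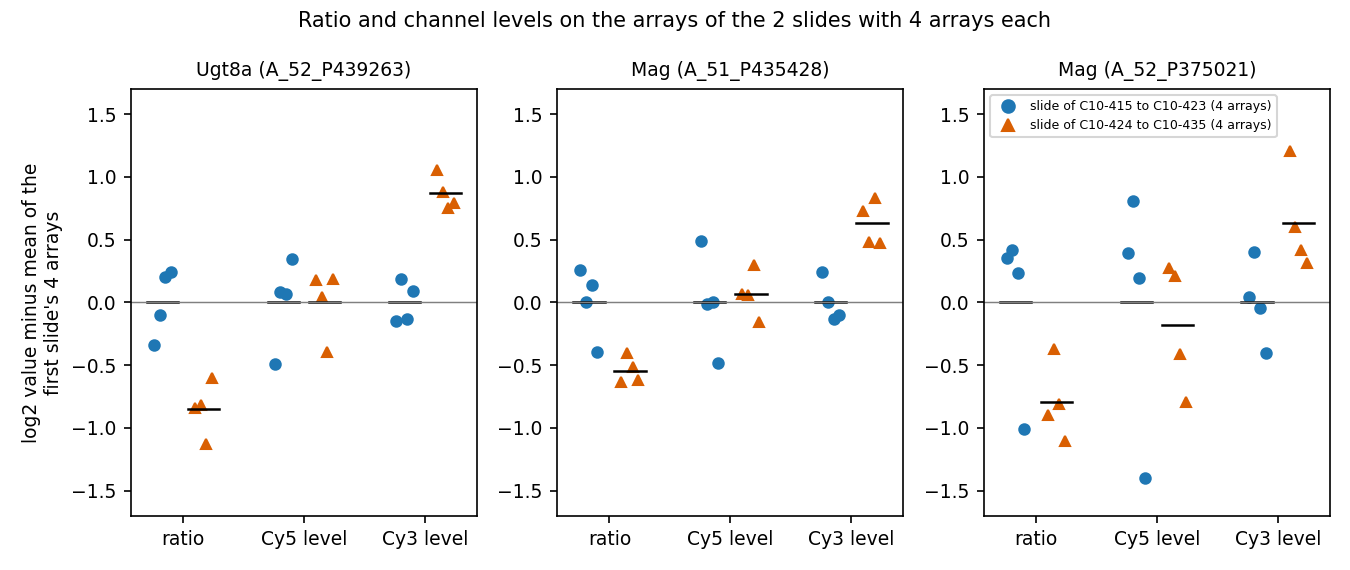
Log2 ratio, Cy5 level and Cy3 level of a Ugt8a probe and of both Mag probes on the 4 arrays of each slide, drawn as the difference from the first slide's mean (points are arrays, bars are slide means). The Cy5 levels of the slides overlap for all 3 probes, while the Cy3 means differ by 0.87, 0.63 and 0.63 in that order (the third at an adjusted p of 0.15, limma).

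Co-variation was measured over the 10 arrays for the 36 pairs of members and, in the same family, the 333 pairs of a member with a wider gene. Among the members r was above 0 for 23 of 36 pairs, with a median of 0.29 (0.71 with normexp and 0.46 with subtraction and a floor), a lowest of -0.68 (Cldn11 and Ugt8a) and a highest of 0.83 (Mbp and Mobp). By permutation 0 of the 36 pairs passed an adjusted p of 0.05, and 6 had an unadjusted p under 0.05. The smallest adjusted p by permutation was 0.092, shared by Mbp with Mobp, Cnp with Mag and Mal with Mog. For Mbp and Mobp the permutation p was 0.0054, rho was 0.61 (adjusted p = 0.31), and r was 0.54 without the 2 arrays farthest from the median of Mbp.

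The dim array C10-434 set many of these values. Mobp and Mal had r = -0.13 over 10 arrays and 0.91 without C10-434, and Mbp and Mal had -0.47 and 0.62. Without it the median r was 0.41, and Mobp, Cnp, Mal and Mag ran together, with r from 0.82 (Cnp and Mag) to 0.94 (Mobp and Mag). In Cy5 alone, over all 10 arrays, r among these genes was 0.42 (Mal and Mag) to 0.81 (Cnp and Mal). Without C10-437, the lowest array for 4 of the 15 probes, the median r was 0.17. Without C10-434, Ugt8a and Cldn11 had r of at most 0.53 with any other member, and their r with each other was -0.68 both with and without that array.

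**Figure D4:**
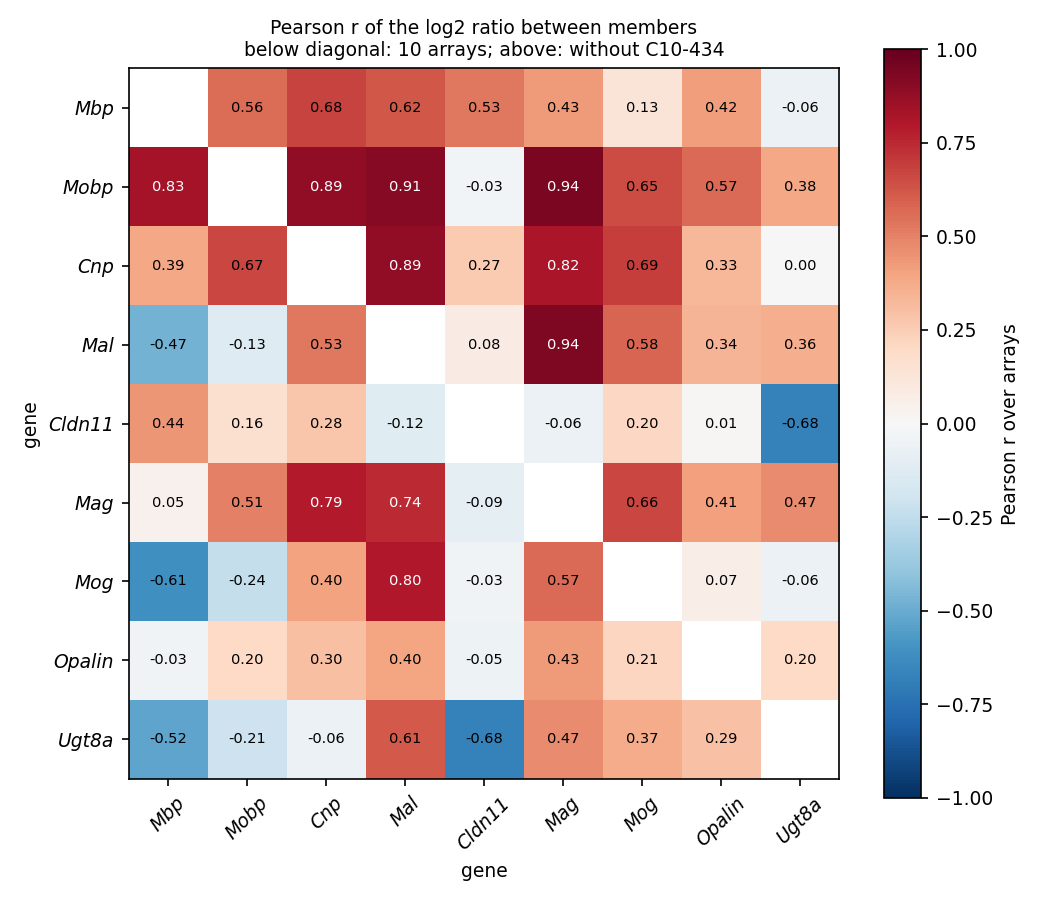
Pearson r of the log2 ratio for the 36 pairs of the 9 members (rows and columns), over 10 arrays below the diagonal and over 9 arrays without C10-434 above it. Mobp, Cnp, Mal and Mag have r of 0.82 to 0.94 among themselves above the diagonal, while the row and column of Cldn11 stay between -0.68 and 0.53 there.

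In Cy5 alone, r was above 0 for 29 of 36 member pairs, with a median of 0.41. Mbp and Mag had r = 0.92 in Cy5 and 0.05 as ratios. Mag and Ugt8a had r = -0.82 in Cy5, 0.83 in Cy3 and 0.47 as ratios, so that what these genes shared as ratios was not found in their hemibrain signals. Within the 2 slides, with each slide's median subtracted, the median r was 0.26 over 8 arrays.

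Of all 369 pairs, 9 passed an adjusted p of 0.05 by r, each joining a member to a wider gene. By rho 6 of these passed, together with 1 other pair, Mbp and Trf (rho = 0.96, permutation adjusted p = 0.020, r = 0.63). Mbp ran with Car2, the carbonic anhydrase of oligodendrocytes (r = 0.98, permutation p = 2.00e-05, adjusted p = 0.0074; rho = 0.92, adjusted p = 0.041), and r was 0.88 without C10-423 and C10-434. In Cy5 alone, however, Mbp and Car2 had r = -0.35, and in Cy3 0.62. Mbp also ran with Plekhb1 (r = 0.95, permutation adjusted p = 0.0074, rho = 0.93), where r was 0.90 without the same arrays, 0.74 in Cy5 and 0.95 in Cy3.

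Mobp ran with Olig1, the lineage factor (r = 0.94, permutation p = 1.30e-04, adjusted p = 0.016; rho = 0.95, adjusted p = 0.020), with r = 0.88 without C10-434 and C10-437. Mag ran with Sox10, the factor that drives myelin genes (r = 0.91, permutation p = 2.90e-04, adjusted p = 0.025; rho = 0.90, adjusted p = 0.047), with r = 0.83 without C10-415 and C10-437. In Cy5 alone these pairs had r = 0.53 and 0.60, and in Cy3 alone 0.84 and 0.68. The other 5 pairs were Mobp with Gpr17, Mal with Fa2h and Neu4, and Mog with Gjb1 and Neu4, with r from 0.89 to 0.94. Of these, Mal with Fa2h, Mal with Neu4 and Mog with Neu4 did not pass by rho. In Cy5 alone Mobp and Gpr17 had r = -0.10, and the other 4 had 0.79 to 0.86. Within the 2 slides the 9 pairs had r of 0.85 to 0.98 over 8 arrays, C10-434 among them. The pairs had been picked by their r over arrays that include these 8, so this is not a separate check.

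The members' median profile, the median over the 9 genes of each gene's ratio less its own median, was highest on C10-416, at 0.30, and lowest on C10-437, at -0.28. Among 11300 other named genes well above background in Cy5 on all arrays, those with the most similar patterns over the 10 arrays included Chadl (r = 0.97), Kcnj11 (0.95), Bloc1s3 (0.94) and Lingo4 (0.93). Without C10-434 the r of these 4 was 0.93 to 0.97. With profiles in Cy5 alone it was 0.54 to 0.72, and over all 11300 genes the median r with the ratio profile was 0.0092. The members enter the profile themselves, so their own r with it was not ranked. Not all members followed it over the 10 arrays. Their r ran from -0.0091 for Cldn11 and 0.10 for Mbp to 0.89 for Cnp and 0.91 for Mag.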

How the data were processed

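RNA from 10 hemibrains was hybridized in Cy5 to 2-colour arrays. For each array the authors deposited scanner output of Feature Extraction 10.10.1.1, with intensities on a linear scale after background correction and linear and LOWESS dye normalization, and a log10 ratio of each spot. They also deposited a table of log2 ratios, whose column medians ran from -0.05 to 0.10 and which correlated with the values used here at 1 on every array. From the deposited processed intensities, log2 Cy5/Cy3 was computed without a further loess, control spots and outlier-flagged spots were left out, and the 43379 other spots of an array were averaged to 41174 probes. Of these, 66.1% were named through RefSeq accessions (GRCm38.p6). The bounds of Mog and Ugt8a, unlike the ratios, used signals after a further loess and a quantile normalization of mean intensity between arrays. Levels of 1 dye are log2 intensities less the array's 75th percentile. A probe was taken as well above background on an array where the flag for it stood on 0.5 or more of its spots, and no spot was saturated. For dye arrays, the number of arrays limits the precision.

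Ratios were tested against 0, and the 2 slides of 4 against each other, with limma 3.58.1 (R 4.3.3) and Benjamini-Hochberg adjustment over all probes. Each mouse gave 1 array, so p-values rest on the spread between arrays. That spread holds the animal, the Cy3 RNA, the labelling and the hybridization together. Correlations used 100000 permutations, two-sided, adjusted over 369 pairs (Python 3.11.15, numpy 2.4.6, pandas 2.3.3), and scripts were tested on simulated data. The members and lists were chosen with earlier results of these data known. Named by rule were the members, the 3 highest and 3 lowest medians of the wider list, and the 5 genes of most similar pattern, less a few genes that are not reported here. Other genes were named after their values were seen. Alternatives were loess (span 0.3), median centring, the deposited table, normexp and subtraction with an offset of 50 (floor 0.5), kept outlier spots, the mean of a gene's probes, other call rules, single dyes, position on the slide, and arrays left out. Ermn and Zfp488 of the wider list and Kcnj13 of the markers matched no probe.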

Additional observations from a re-analysis of the deposited data

Results flagged for a closer look

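In 50 sets of 10 array values (the ratio, Cy5 level and Cy3 level of each member probe, and the ratio of 5 named wider genes), 8 had a lowest or highest array whose gap to the next, divided by the whole range, passed Dixon's 95% limit. Chance flags about 1 in 20 sets. All 8 were on C10-434, the array with the fewest probes well above background.

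As ratios, 4 probes were high on that array. Mbp A_51_P349205 read 6.43 against 4.95 to 5.49 on the other arrays (gap 0.6335 of the range), and Mbp A_52_P329451 read 4.28 against 2.65 to 3.48 (0.4881). Mobp A_52_P267600 read 4.85 against 3.66 to 4.12 (0.6102), and Mal A_52_P562661 read 4.96 against 4.01 to 4.47 (0.5215).

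For 3 of the 4 the Cy3 level was low there. It was 0.45 for Mbp A_51_P349205 against 1.17 to 1.87 (0.5107), -4.70 for Mobp A_52_P267600 against -3.33 to -2.07 (0.5234), and -3.05 for Mal A_52_P562661 against -2.45 to -1.98 (0.5633). The Cy5 level of Mbp A_51_P349205 on C10-434 was 6.88, within the 6.24 to 7.01 of the other arrays. In Cy5, the level of Opalin was low on C10-434, at -3.15 against -2.31 to -1.44 (0.4876). The part of the dim array in these values was not tested beyond leaving it out, which left all 9 members higher in Cy5.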

How the results depend on the processing

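All 9 members were higher in Cy5 under loess, median centring, the deposited table, both background corrections, kept outlier spots, the mean of a gene's probes and each array left out. At a ratio above 3 on every array the count was 7, and among probes well above background in both dyes on every array it was 5, since the others could not enter. Of the wider genes, 26 or 27 were higher under every alternative. Normexp moved the median SD of the members over arrays from 0.43 to 0.87 and their median r from 0.29 to 0.71, and the cause was not tested. The count of member probes that differed between slides was 0 under each alternative for the ratio and in Cy5, 3 in Cy3 (1 of them at background), and 2 in Cy3 before dye normalization. Of all probes, 11.0% differed in Cy3 and 16.7% in Cy3 before dye normalization. Leaving out each array in turn gave 9 to 9 members, 27 to 27 wider genes, 0 to 0 probes between slides, a median SD of 0.40 to 0.44, and a median r of 0.17 (without C10-437) to 0.41 (without C10-434). Over the other alternatives for the median r the range was 0.17 to 0.46. No paired analysis was possible because the arrays form 1 group. Dim Cy3 signals limit the ratios of Cldn11, Mog, Opalin and Ugt8a.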
